A study of Homo sapiens with 4 samples.

Results

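The genes described here are 10 that are used to define or isolate breast cancer stem cells: CD44, CD24, PROCR, PROM1, ALDH1A1, ALDH1A3, ABCG2, BMI1, SOX2 and SOX9. They were taken by symbol from the 57500 genes counted in the series, through the Ensembl identifiers and GENCODE release 29, and all 10 were found at the same position in that release. RNA was sequenced from SUM159 cells, an established human line of metaplastic, triple-negative breast cancer. One library came from parental cells and 3 came from NOS2KO clones of the same line, numbered 1, 5 and 6. To make the clones, a Double Nickase plasmid that targets NOS2, the gene of inducible nitric oxide synthase (iNOS), was transfected, and cells were selected with puromycin and chosen by their iNOS protein and nitrite and nitrate production. No such transfection, selection or cloning is stated for the parental cells. Loss of NOS2, transfection, drug selection and cloning therefore cannot be told apart in these libraries. NOS2 itself had 2 counts in parental cells against 3 (clone 1), 18 (labelled clone 5) and 1 (clone 6), so it was hardly measured in any of them and the words "labelled clone 5" are kept.

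Breast cancer stem cells are cells that can found a new tumor after transplantation. The classic surface phenotype is high CD44, the receptor for the matrix polymer hyaluronan, with low CD24, a small glycosylated surface protein carried by more differentiated luminal cells. A second, partly overlapping population is found by high aldehyde dehydrogenase activity, for which ALDH1A1 and ALDH1A3, enzymes that make retinoic acid, are the usual sources. PROCR, the endothelial protein C receptor, and PROM1 (CD133) are further surface markers. ABCG2 is a drug efflux pump that gives the dye-excluding side population, BMI1 is a subunit of Polycomb repressive complex 1, and SOX2 and SOX9 are transcription factors of progenitor states. Bulk RNA gives the mean of all cells in a culture, so that a change in the number of positive cells and a change in mRNA per cell cannot be told apart.

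The libraries held 90467395 to 122171287 counts on genes, and 22511 genes had enough counts to be tested. Among 10709 genes that reached 10 CPM (counts scaled to library size) in any library, 23.2% to 23.3% differed by more than 1 on the log2 scale between the parental library and a clone, 16.3% to 16.4% between clone 1 and another clone, and 5.63% between the library labelled clone 5 and clone 6. The receptors used to call a tumor triple-negative were low for ESR1 (0.0785 to 0.741 CPM) and PGR (0 to 3 counts), while ERBB2 had 48.3 CPM in parental cells and 55.6 to 106 CPM in the clones. The epithelial genes EPCAM and CDH1 had at most 28 and 44 counts, but the epithelial keratin genes KRT8 (254 to 806 CPM) and KRT18 (303 to 467 CPM) were abundant. The mesenchymal gene VIM had 1655 to 3855 CPM. Of the leukocyte markers, CD3E had 0 to 8 counts, but PTPRC, which encodes CD45, had 4.45 CPM in the parental library and 68.4, 105 and 41.7 CPM in the clones. All values below are CPM scaled by the trimmed mean of M values (TMM), listed as parental first, then clones 1, 5 (as labelled) and 6. All 10 markers passed the filter on low counts, SOX2 only through its counts in clone 6 and in the library labelled clone 5.

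The plot of marker levels gives the 10 genes in the 4 libraries.

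**Figure D1:**
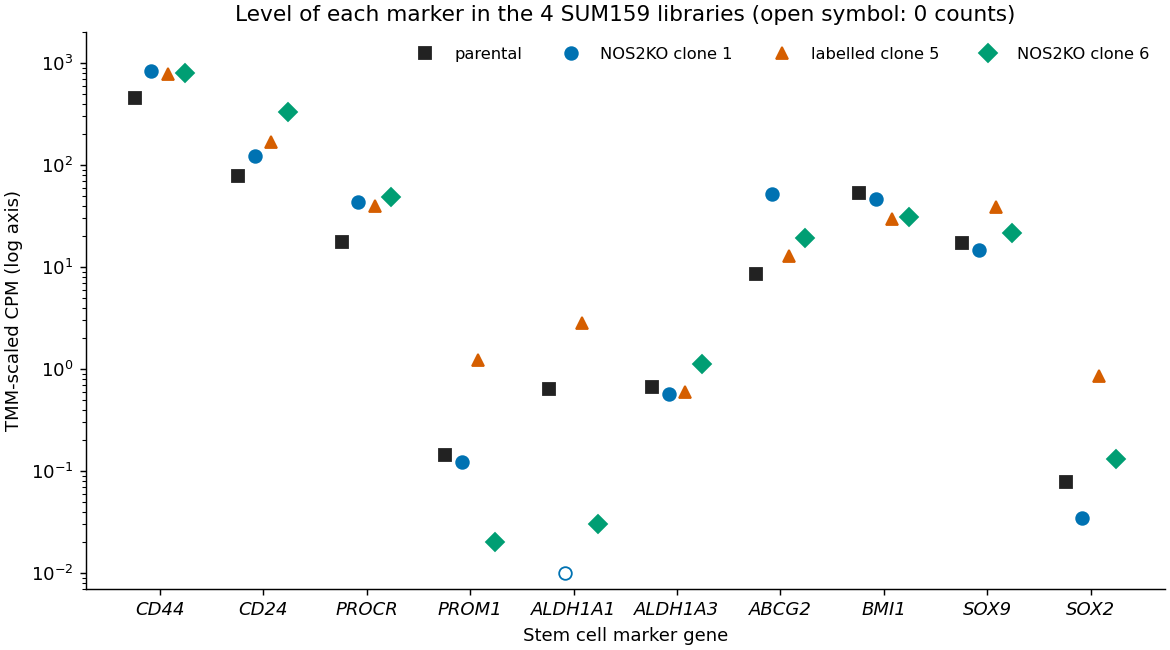
TMM-scaled CPM (log axis) of each stem cell marker in the parental library (squares) and in the clones (circles, triangles and diamonds). CD44, CD24, PROCR, BMI1, SOX9 and ABCG2 were at 8.57 CPM or more in every library, and PROM1, ALDH1A1, ALDH1A3 and SOX2 were at 2.82 CPM or less in every library.

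CD44 (ENSG00000026508, chromosome 11 of GRCh38, 35138870 to 35232402, plus strand) was the most abundant marker by counts, with 454 CPM in parental cells and 827, 785 and 802 CPM in the clones. All 3 clones lay above the parental library, and they lay very close to one another. The clone mean was 805 ± 21.5 CPM (SD, n = 3), 1.77 times the parental level. The SD of log2 CPM among the clones was 0.04, and only 0.880% of tested genes had a smaller one, against a median SD of 0.31 over the genes that reached 10 CPM. The fitted log2 fold change was 0.82 (SE 0.30), with an edgeR adjusted p of 0.438 and a DESeq2 adjusted p of 0.123, so that it did not pass either test. The unadjusted edgeR p was 0.0520. The counts join all splice forms, so that standard and variant CD44 were not separated.

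CD24 (ENSG00000272398, chromosome 6, 106969831 to 106975627, minus strand) was at 77.2 CPM in parental cells and at 122, 169 and 332 CPM in the clones. All 3 clones were again above the parental library, but unlike CD44 they were spread widely, with clone 6 at 2.72 times clone 1. The clone mean was 208 ± 110 CPM (SD, n = 3), and the SD of log2 CPM was 0.74. Its log2 fold change was 1.43 (SE 0.62, edgeR adjusted p = 0.493), and without clone 6 it was 0.92. The 3 named CD24 pseudogenes held 2 to 26 counts in sum. The treatment of multiply mapped reads is not given, so reads shared between them and CD24 may be missing from these counts.

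PROCR (ENSG00000101000, chromosome 20, 35172073 to 35216240, plus strand) was at 17.4 CPM in parental cells and at 43.1, 39.8 and 48.4 CPM in the clones. The groups did not overlap and the clones were close together, with an SD of log2 CPM of 0.14, smaller than in all but 10.4% of tested genes. The clone mean was 43.8 ± 4.32 CPM (SD, n = 3), 2.52 times the parental level, and each clone by itself was 2.29-fold to 2.78-fold higher. The fitted log2 fold change was 1.33 (SE 0.28). PROCR was the only one of the 10 markers to meet the criterion of an unadjusted edgeR p under 0.05 with a log2 fold change above 1 or below -1, with an unadjusted p of 0.00806. Its edgeR adjusted p was 0.332 and its DESeq2 adjusted p was 0.0105, so that the call after adjustment depended on the tool. PROCR also marks endothelial cells, and of 4 endothelial markers PECAM1 was the most abundant in every library, at 16.1 CPM in parental cells and 13.9, 7.06 and 8.64 CPM in the clones. The other endothelial markers were low in parental cells and higher in some clones, with 1 count and 12, 372 and 16 counts for CDH5, 19 and 32, 405 and 212 for VWF, and 2 and 80, 33 and 2 for KDR. Of these 4 genes 3 were fitted higher (median log2 fold change 3.59) and 0 met the criterion, and their part in the PROCR level was not tested. An antisense gene, AL356652.1, shares 12.9% of the PROCR exon bases and had 0 to 8 counts.

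PROM1 (ENSG00000007062, chromosome 4, 15963076 to 16084378, minus strand) was nearly silent, with 13, 14, 130 and 2 counts. The library labelled clone 5 stood above the others at 1.22 CPM, against 0.144 CPM in parental cells, 0.122 in clone 1 and 0.0203 in clone 6. Relative to parental cells, its log2 ratio was 3.08 there (95% interval 2.26 to 4.03), while clone 1 gave -0.24 (-1.43 to 0.97) and clone 6 gave -2.83 (-6.02 to -0.68). These exact Clopper-Pearson intervals cover counting error only. The groups overlapped, the fitted log2 fold change of 1.65 had an SE of 2.10 (edgeR adjusted p = 0.799), and without the library labelled clone 5 it was -0.97. The neighbouring gene FGFBP2, on the same strand, shares 2.23% of the PROM1 exon bases and had 8, 43, 129 and 227 counts.

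The sequences just before the start sites of 4 markers are given because their mRNA behaved differently: PROCR was higher by a similar amount in each clone, CD24 was higher by unequal amounts, and PROM1 and ALDH1A1 were high in a single clone. Each is the 250 bases before a RefSeq start site (GRCh38.p14), 5′ to 3′ on the strand of the gene, and capitals mark the motifs found.
PROCR promoter (chr20:35171822-35172071, plus strand): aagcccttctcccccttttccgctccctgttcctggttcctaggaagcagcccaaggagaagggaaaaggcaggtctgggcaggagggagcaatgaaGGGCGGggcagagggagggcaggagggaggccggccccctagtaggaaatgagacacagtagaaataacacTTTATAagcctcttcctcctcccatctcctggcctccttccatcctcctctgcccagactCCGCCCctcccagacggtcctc
CD24 promoter (chr6:106975628-106975877, minus strand): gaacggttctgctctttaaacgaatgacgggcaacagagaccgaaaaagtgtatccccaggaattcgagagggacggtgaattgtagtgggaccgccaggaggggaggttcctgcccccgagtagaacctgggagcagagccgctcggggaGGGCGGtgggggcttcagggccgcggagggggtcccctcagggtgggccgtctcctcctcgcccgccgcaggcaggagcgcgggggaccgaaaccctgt
PROM1 promoter (chr4:16076119-16076368, minus strand): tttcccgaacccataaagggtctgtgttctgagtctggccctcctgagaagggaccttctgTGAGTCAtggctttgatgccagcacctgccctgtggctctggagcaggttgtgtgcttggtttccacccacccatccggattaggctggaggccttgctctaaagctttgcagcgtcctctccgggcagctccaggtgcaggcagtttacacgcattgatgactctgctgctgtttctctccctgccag
ALDH1A1 promoter (chr9:72953054-72953303, minus strand): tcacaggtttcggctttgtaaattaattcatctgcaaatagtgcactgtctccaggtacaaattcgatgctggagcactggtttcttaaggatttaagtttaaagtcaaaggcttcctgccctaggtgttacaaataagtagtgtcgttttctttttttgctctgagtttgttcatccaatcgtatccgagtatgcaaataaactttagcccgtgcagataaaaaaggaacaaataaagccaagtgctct
Both strands were searched for 7 patterns. The AP-1 pattern, bound by JUN and FOS proteins, was TGANTCA. The cAMP response element was TGACGTCA. For RBPJ, the factor of Notch signalling, it was TGGGAA, and the GLI pattern of Hedgehog signalling was TGGGTGGTC. The TATA pattern was TATAAA, and a GC box was read as GGGCGG. A kappaB pattern was searched too, and it can share bases with that of RBPJ on the opposite strand. The PROCR promoter held a TATA match on the opposite strand 82 bases before the start and GC boxes 153 and 22 bases before it, and the CD24 promoter held a GC box 99 bases before the start. The PROM1 and ALDH1A1 starts lie inside the genes as annotated in release 29, so these stretches may be introns of longer transcripts. Whether they act as promoters was not tested. In PROM1 an AP-1 match began 189 bases before the RefSeq start. None of the patterns stood in the ALDH1A1 sequence. Over 35116 windows of 300 bases around start sites, 7.71% held the AP-1 letters, 11.5% the TATA letters and 45% the GC box letters. RefSeq windows were found for 9 of the 10 markers, all but SOX9, and numbered 19. Of these, 1 held AP-1 (PROM1), 1 held TATA (PROCR), 12 held a GC box and 3 held RBPJ letters (CD24 and BMI1), which 24% of all windows did. The cAMP response, kappaB and GLI patterns stood in none of the 19, and in 1.85%, 1.91% and 0.236% of all windows. A match is a description of letters, not of binding.

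ALDH1A1 (ENSG00000165092, chromosome 9, 72900662 to 73080442, minus strand) had 57 counts in parental cells and 0, 301 and 3 counts in the clones. The clones thus lay on both sides of the parental library. In CPM the values were 0.631, 0, 2.82 and 0.0304. The library labelled clone 5 was 4.48-fold above the parental library (log2 ratio 2.16, 95% interval 1.75 to 2.60), clone 6 was below it (-4.37, -6.69 to -2.75), and the 0 counts of clone 1 put its log2 ratio at -4.25 or below (upper 95% limit). The SD of log2 CPM among the clones was 3.82, larger than in 99.7% of tested genes. Over the clones the log2 fold change was 0.59 with an SE of 2.99 (edgeR adjusted p = 0.954), and without the library labelled clone 5 it was -5.30.

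ALDH1A3 (ENSG00000184254, chromosome 15, 100877714 to 100916626, plus strand) had 60, 65, 64 and 110 counts, or 0.664, 0.567, 0.600 and 1.12 CPM. Clone 1 and the library labelled clone 5 were slightly below the parental level, within counting error, and clone 6 was above it (log2 ratio 0.75, 95% interval 0.28 to 1.23). The fit gave a log2 fold change of 0.20 (SE 0.71, edgeR adjusted p = 0.932), which was -0.18 without clone 6. An opposite-strand gene, AC015712.2, with 164 to 455 counts, shares 27.5% of the ALDH1A3 exon bases. The strand setting of the counting is not given in the sources used here, so reads of these genes cannot be told apart in their shared part.

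The retinaldehyde dehydrogenases differed in composition from library to library. Per exon length, ALDH1A1 made up 59.1% of the ALDH1A level in parental cells and 0%, 84.7% and 4.67% in the clones. ALDH1A3 made up 30.7%, 67.9%, 8.89% and 84.5%, and ALDH1A2 the remainder. These shares rest on 111 to 434 counts per library, and the 0 counts of ALDH1A1 in clone 1 allow a share of up to 3.27% of the ALDH1A counts (exact Clopper-Pearson 95% limit). The total ALDH1A level was 0.375 RPKM (TMM-scaled CPM per kilobase of exon) in parental cells and 0.145, 1.17 and 0.229 RPKM in the clones. Other aldehyde dehydrogenases were far more abundant, led by ALDH18A1, which acts in proline synthesis (47.4, 43.95, 33.9 and 26.8 RPKM), and ALDH9A1 (19.1, 30.8, 21.4 and 28.1 RPKM). ALDH1A1 reached at most 0.828% of the summed level of the 19 ALDH genes, in the library labelled clone 5.

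The CD44 to CD24 ratio was then computed per exon length, since the surface phenotype is defined by both. It was 1.81 in parental cells and 2.08, 1.43 and 0.743 in the clones. Per exon length CD44 therefore exceeded CD24 in all libraries other than clone 6. By counts alone, CD44 was 5.88 times CD24 in parental cells and 6.76, 4.65 and 2.41 times in the clones. The exon lengths (10057 bases for CD44 and 3097 for CD24) join all annotated exons, so the order in clone 6 depends on the length used. On the log2 scale the ratio per exon length was 0.86 in parental cells and 0.38 ± 0.75 (SD, n = 3) in the clones. The difference of -0.48 was smaller than the spread among the clones and came to -0.07 without clone 6. The parental value lay inside the range of the clones. The ratio was not tested, and the smallest p that exact permutation allows in this design is 0.25.

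**Figure D2:**
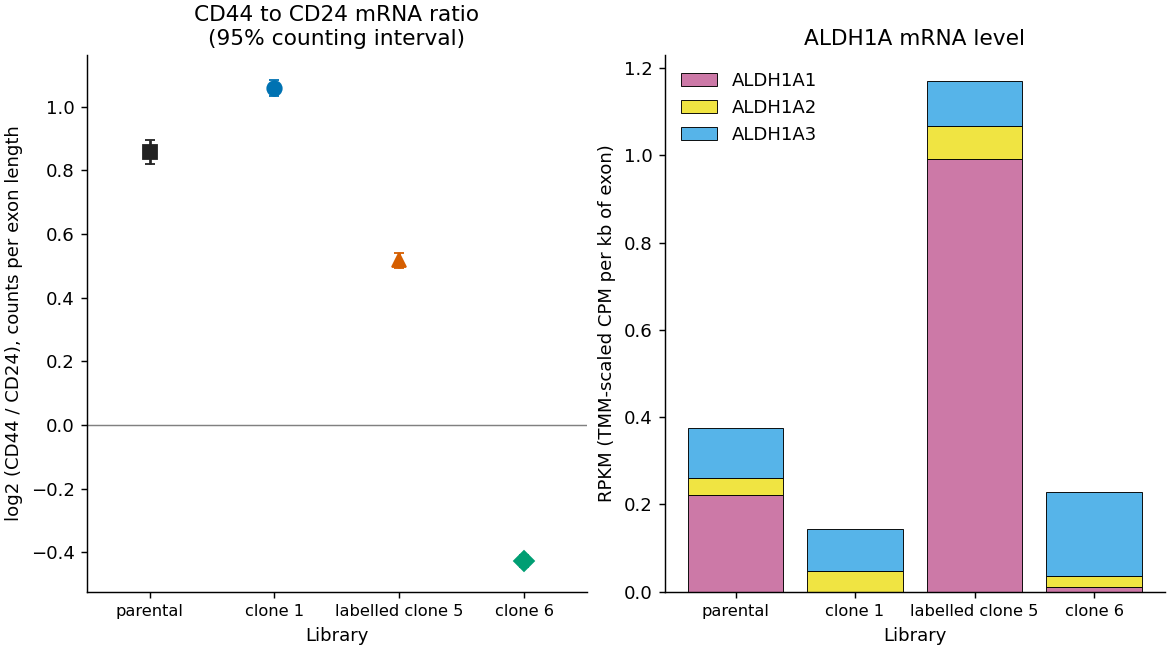
Left, log2 ratio of CD44 to CD24 counts per exon length in each library, with 95% counting intervals. Right, stacked RPKM of ALDH1A1, ALDH1A2 and ALDH1A3. The ratio was above 0 in 3 of the 4 libraries and -0.43 in clone 6, and ALDH1A1 made up most of the 1.17 RPKM in the library labelled clone 5.

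ABCG2 (ENSG00000118777, chromosome 4, 88090264 to 88231322, minus strand) was at 8.57 CPM in parental cells and at 51.4, 12.7 and 19.2 CPM in the clones. All 3 clones were above the parental library, and clone 1 was far above the other two, at 4.04 times the library labelled clone 5. The clone mean was 27.8 ± 20.7 CPM (SD, n = 3). For ABCG2 the log2 fold change was 1.70 (SE 0.84, edgeR adjusted p = 0.539), and without clone 1 it was 0.90. Clone 1 by itself was 5.99-fold above the parental library, clone 6 was 2.24-fold and the library labelled clone 5 was 1.48-fold above it.

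BMI1 (ENSG00000168283, chromosome 10, 22321211 to 22331484, plus strand) was the only marker below the parental level in all 3 clones, at 52.6 CPM in parental cells and 46.0, 29.3 and 31.1 CPM in the clones. Clone 1 lay near the parental value, and the other two were close to each other. The clone mean was 35.5 ± 9.20 CPM (SD, n = 3), and the fitted log2 fold change was -0.57 (SE 0.37, edgeR adjusted p = 0.580). The readthrough gene COMMD3-BMI1 shares 23.3% of the BMI1 exon bases but had only 1 to 10 counts, and adding them left the fold change at -0.57.

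SOX9 (ENSG00000125398, chromosome 17, 72121020 to 72126420, plus strand) was at 17.3 CPM in parental cells and at 14.8, 38.3 and 21.4 CPM in the clones. The library labelled clone 5 stood highest, clone 6 was 1.23-fold above the parental library, and clone 1 was below it. The clone mean was 24.8 ± 12.2 CPM (SD, n = 3). The fitted log2 fold change was 0.52 (SE 0.60, edgeR adjusted p = 0.764), and without the library labelled clone 5 it was 0.09.

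SOX2 (ENSG00000181449, chromosome 3, 181711924 to 181714436, plus strand) had 7, 4, 90 and 13 counts. The library labelled clone 5 reached 0.844 CPM, 10.9-fold above the parental 0.0774 CPM (log2 ratio 3.45, 95% interval 2.34 to 4.80). The ratios of clone 1 (-1.15, -3.37 to 0.83) and clone 6 (0.77, -0.66 to 2.33) were within counting error of 0. The fitted log2 fold change was 2.10 with an SE of 1.86 (edgeR adjusted p = 0.714), and it was 0.12 without the library labelled clone 5. SOX2 and PROM1 were thus measured at a depth that cannot show a moderate difference outside that library.

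**Figure D3:**
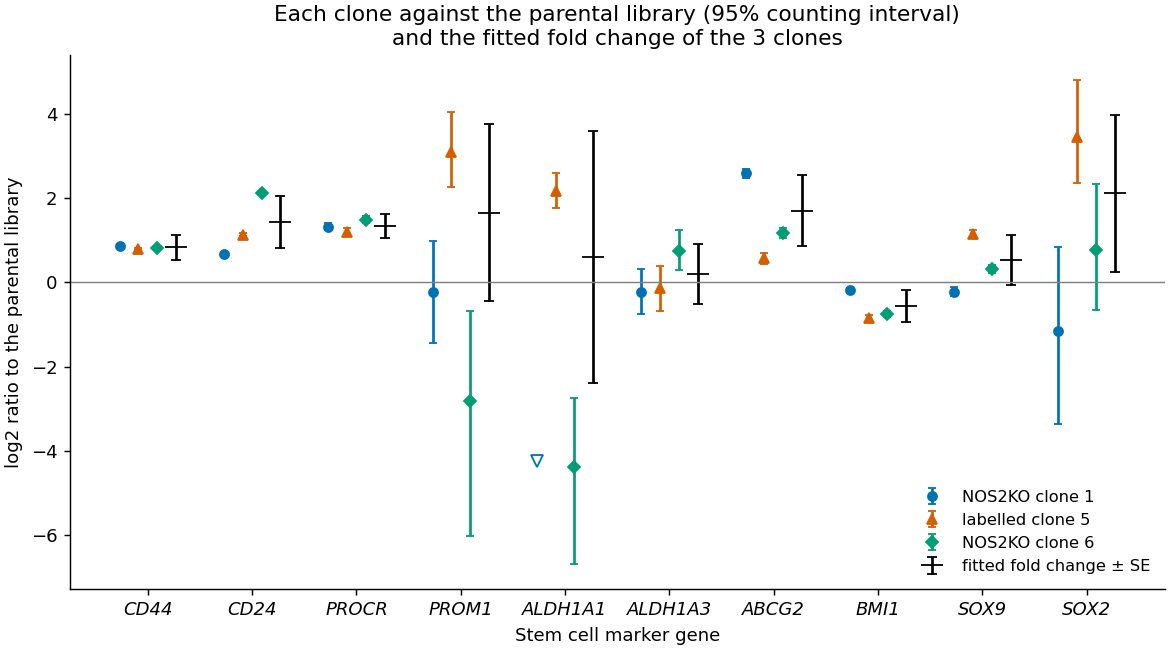
Log2 ratio of each clone to the parental library for the 10 markers, with exact 95% counting intervals, and the fitted log2 fold change of the 3 clones with its SE (black bars). The open triangle is the upper 95% limit for ALDH1A1 in clone 1, which had 0 counts. The 3 ratios were nearly equal for CD44 (0.79 to 0.87) and for PROCR (1.20 to 1.48), and they lay on both sides of 0 for PROM1, ALDH1A1, ALDH1A3, SOX2 and SOX9.

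Considered together, 0 of the 10 markers had an edgeR adjusted p under 0.05, as against 0.00444% of all tested genes (1 gene). At an unadjusted p under 0.05 there was 1 marker, PROCR, against 11.5% of all genes, and DESeq2 called 1 marker after adjustment, PROCR again, against 4.94%. By the criterion on unadjusted p and fold change, 1 of 10 was higher in the clones (4.24% of all genes) and 0 were lower (5.34%), which is near the background. DESeq2 by the same criterion counted 2 markers, CD24 and PROCR, higher in the clones (7.07% of all genes). The count was also 2 without clone 1 (CD24 and PROCR), where 1791 of 21908 genes tested were higher and 1608 lower. It was 3 without the library labelled clone 5 (PROCR, ABCG2 and ALDH1A1, the last lower), where 688 of 21504 were higher and 996 lower. The median fitted log2 fold change was 1.08 for the 10 markers and 0.10 for all tested genes, but without the library labelled clone 5 it was 0.24 against 0.07. It joins 5 markers whose clones lay on both sides of the parental level.

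CD44, CD24, ABCG2 and PROCR were above the parental level in all 3 clones, which 28.6% of all genes were. BMI1 was below it in all 3, as were 30.5% of all genes. For 5 of the 10 the parental library therefore lay outside the range of the clones, against 59.1% of all genes. PROCR was the only marker more than 1 log2 unit higher in each clone (6.33% of all genes), and no marker was lower by that much in each (5.99%).

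The single clones differed in which markers stood out. In the library labelled clone 5, 6 markers were more than 1 log2 unit above the parental level (CD24, ALDH1A1, PROM1, SOX2, SOX9 and PROCR), against 20.1% of all genes, and 0 were as far below it, against 13.8%. In clone 6 there were 3 above (CD24, ABCG2 and PROCR, 17.9% of all genes) and 2 below (ALDH1A1 and PROM1, 15.5%), and in clone 1 there were 2 above (ABCG2 and PROCR, 15.8%) and 1 below (ALDH1A1, 18.8%). ALDH1A1, PROM1 and SOX2 were in the library labelled clone 5 at least 2 times their level in every other library, as were 5.35% of all genes, and ABCG2 was so in clone 1 (4.54%), whereas 0 markers stood out in this way in the parental library (6.29%) or in clone 6 (2.98%). These are single libraries, so the differences carry no test.

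**Figure D4:**
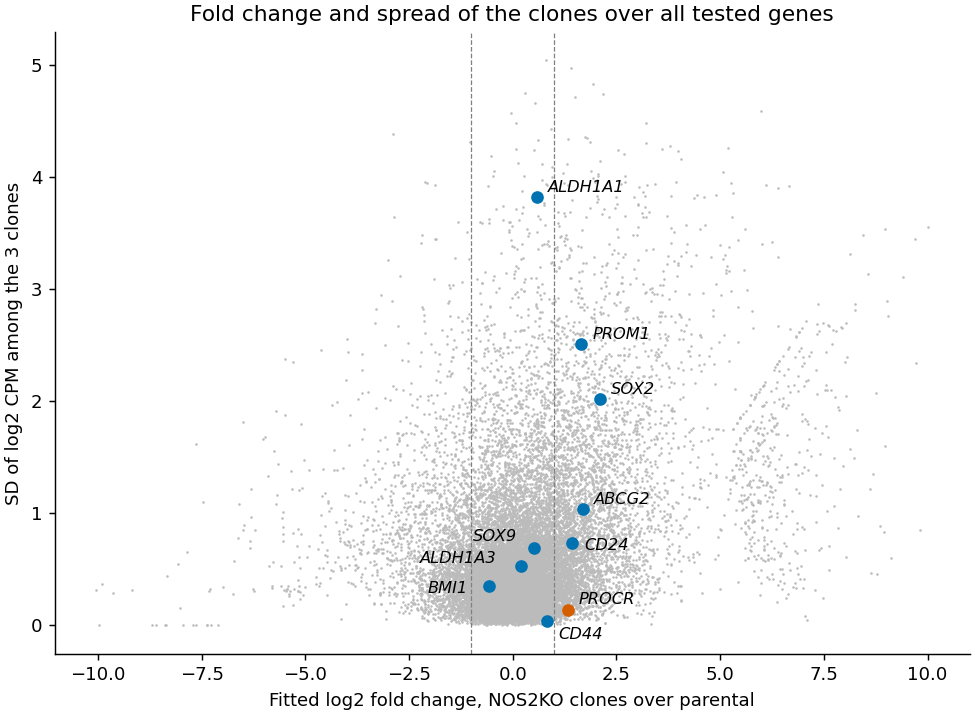
Fitted log2 fold change of the NOS2KO clones over the parental library (x axis) against the SD of log2 CPM among the 3 clones (y axis), for 22511 tested genes (grey) and the 10 markers (blue, or orange where the criterion was met). CD44 and PROCR lay at the bottom, with SDs of 0.04 and 0.14, and ALDH1A1, PROM1 and SOX2 at the top, with SDs of 3.82, 2.51 and 2.02.

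Levels were compared between genes per exon length. In parental cells the order in RPKM was CD44 (45.2), CD24 (24.9), BMI1 (12.3), PROCR (10.2), SOX9 (4.40), ABCG2 (1.77), ALDH1A1 (0.221), ALDH1A3 (0.115), SOX2 (0.0308) and PROM1 (0.0193). PROCR stood above BMI1 in each clone, at 23.5 to 28.5 RPKM against 6.84 to 10.8 RPKM, where in parental cells it stood below. CD44 was the highest marker in all libraries but clone 6, where CD24 reached 107 RPKM and CD44 79.7 RPKM. By counts, CD44 stood above CD24 in clone 6 too, at 2.41 times. ABCG2 in clone 1 (10.6 RPKM) was level with BMI1 (10.8 RPKM). PROM1 and SOX2 stayed under 0.34 RPKM in every library.

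Genes around the markers were taken from 9 lists of 154 other genes. Of 133 tested, 0 had an edgeR adjusted p under 0.05 and 20 an unadjusted one, while 14 had a DESeq2 adjusted p under 0.05. The criterion was met by 18, 9 higher and 9 lower (13.5%, against 9.58% of all genes), and 13 of these were among the 14. The counts below use the criterion, and the medians are fitted log2 fold changes, against 0.10 over all genes. Over all genes the criterion was met by 955 higher and 1202 lower, and without clone 1 by 1791 and 1608. Without clone 6 it was met by 641 and 825, and with DESeq2 by 1591 and 1144. List counts from those fits are to be read beside these numbers.

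Protein C binds PROCR and is activated on cells by thrombin with thrombomodulin, and activated protein C and thrombin signal through protease-activated receptors. In the protein C and tissue factor list, 4 of 13 tested genes were higher and 1 was lower, with a median of 1.23. PROS1, the cofactor protein S, was at 3.21 CPM in parental cells and 24.9, 11.4 and 16.4 CPM in the clones (log2 fold change 2.45, SE 0.53, edgeR adjusted p = 0.334). F2RL2, the receptor PAR3, was at 28.1 CPM and 87.5, 123 and 207 CPM (2.31, SE 0.54, edgeR adjusted p = 0.343). Chosen after their values were seen, F3, which encodes tissue factor, was at 19.7 CPM and 57.0, 59.3 and 44.4 CPM, F2R, the thrombin receptor PAR1, was at 219 CPM and 459, 466 and 707 CPM, and F2RL3, the receptor PAR4, was lower at 48.8 CPM and 10.9, 25.3 and 17.2 CPM. TFPI2, a protease inhibitor, was at 55.2 CPM and 24.01, 4.32 and 8.37 CPM and did not meet the criterion (edgeR adjusted p = 0.454). All 3 clones lay to one side of the parental library for each of these genes. The count in the list was 9 without clone 1 and 3 without clone 6.

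In the CD44 and hyaluronan list, 1 of 16 tested genes was higher and 3 were lower, with a median of 0.27. VCAN, the hyaluronan-binding proteoglycan versican, was at 52.5 CPM in parental cells and 329, 313 and 358 CPM in the clones, which were close together and far above it (log2 fold change 2.67, SE 0.29, edgeR adjusted p = 0.259, DESeq2 adjusted p = 2.7e-11). The genes lower by the criterion, named after their values were seen, were HAS3, a hyaluronan synthase (4.60 CPM and 1.06, 1.62 and 0.913 CPM), MMP14, a membrane protease that cleaves CD44 (1.55 CPM and 0.166, 0.525 and 0.446 CPM), and ESRP1, an epithelial regulator of CD44 splicing (511 counts and 8, 86 and 22 counts). HYAL2, a hyaluronidase, and MSN, which encodes moesin and links CD44 to actin, did not meet it, with log2 fold changes of 0.65 and 0.51. Of the 16 tested genes, 10 were fitted higher and 6 lower. Among the higher, and named after its values were seen, was another hyaluronan synthase, HAS2 (log2 fold change 1.46), which did not meet the criterion. Without clone 6 the count in the list was 1.

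In the ALDH family, 2 of 18 tested genes were higher and 0 were lower, with a median of 0.41. ALDH7A1, which acts in lysine breakdown, was at 34.0 CPM and 82.5, 278 and 142 CPM (log2 fold change 2.30, SE 0.71, edgeR adjusted p = 0.410). ALDH4A1, which acts in proline breakdown, was at 8.52 CPM and 17.9, 26.5 and 20.5 CPM (1.34, SE 0.37, edgeR adjusted p = 0.3596). ALDH6A1, at 19.6 CPM and 41.8, 23.1 and 45.9 CPM, did not meet the criterion. Of the retinoid pathway, 0 of 13 were higher and 1 was lower. That gene was DHRS3, which reduces retinaldehyde back to retinol, at 67.2 CPM in parental cells and 3.20, 18.3 and 9.46 CPM in the clones (log2 fold change -2.70, SE 0.94, edgeR adjusted p = 0.371). RARA, a retinoic acid receptor, was at 74.7 CPM and 67.8, 67.3 and 71.6 CPM.

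Of 15 ABC transporters, taken as a drug efflux list with ABCG2 included, 1 was higher and 1 was lower. ABCG1, a cholesterol exporter of the same subfamily as ABCG2, was at 97.9 CPM in parental cells and 9.22, 3.33 and 10.6 CPM in the clones (log2 fold change -3.66, SE 0.69, edgeR adjusted p = 0.275, DESeq2 adjusted p = 0.00019). ABCB4, named after its values were seen, went from 2 counts to 206, 67 and 28 counts. ABCC3, at 391 CPM and 130, 251 and 261 CPM, and ABCC10, at 21.2 CPM and 22.6, 27.5 and 28.4 CPM, did not meet the criterion. Without clone 1 the count was 5.

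Of 23 genes in the Polycomb list, 0 were higher and 1 was lower, with a median of -0.42. The gene was CDKN2A, not a Polycomb subunit but the cell cycle inhibitor locus that BMI1 is known to repress. It had 107 counts in parental cells and 12, 19 and 1 in the clones, and it was named after its values were seen. Below the parental level in all 3 clones were 14 of the 23, CDKN2A among them and BMI1 not counted, against 30.5% of all genes. YAF2 was at 28.9 CPM and 13.4, 14.1 and 15.8 CPM and PHC2 at 309 CPM and 172, 202 and 131 CPM, while CBX2 was at 36.6 CPM and 58.3, 85.3 and 68.0 CPM, none of them meeting the criterion. Of 11 tested SOX genes, SOX2 and SOX9 included, 0 met the criterion in edgeR, and 1 did in DESeq2. SOX7 was at 15.0 CPM and 4.22, 8.70 and 5.95 CPM (edgeR adjusted p = 0.451).

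Among 9 tested pluripotency factors 1 was lower, KLF4, at 64.1 CPM in parental cells and 12.2, 11.1 and 6.30 CPM in the clones (log2 fold change -2.70, SE 0.47, edgeR adjusted p = 0.275, DESeq2 adjusted p = 0.00027). Among 20 other proposed markers of breast stem cells, 1 was higher and 1 was lower, with a median of 0.76. NGFR, the low-affinity neurotrophin receptor, was at 24.3 CPM and 2.02, 6.47 and 1.81 CPM (-2.82, SE 0.88, edgeR adjusted p = 0.352). ST8SIA1, which makes the ganglioside GD3 and was named after its values were seen, went from 12 counts to 174, 326 and 81. LGR6 was at 2.72 CPM and 13.7, 94.8 and 7.34 CPM and TNFRSF11A, the receptor RANK, at 3.79 CPM and 22.6, 5.48 and 9.48 CPM, neither meeting the criterion. Without clone 1 the count among these markers was 5, without clone 6 it was 4, and with DESeq2 it was 4.

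**Figure D5:**
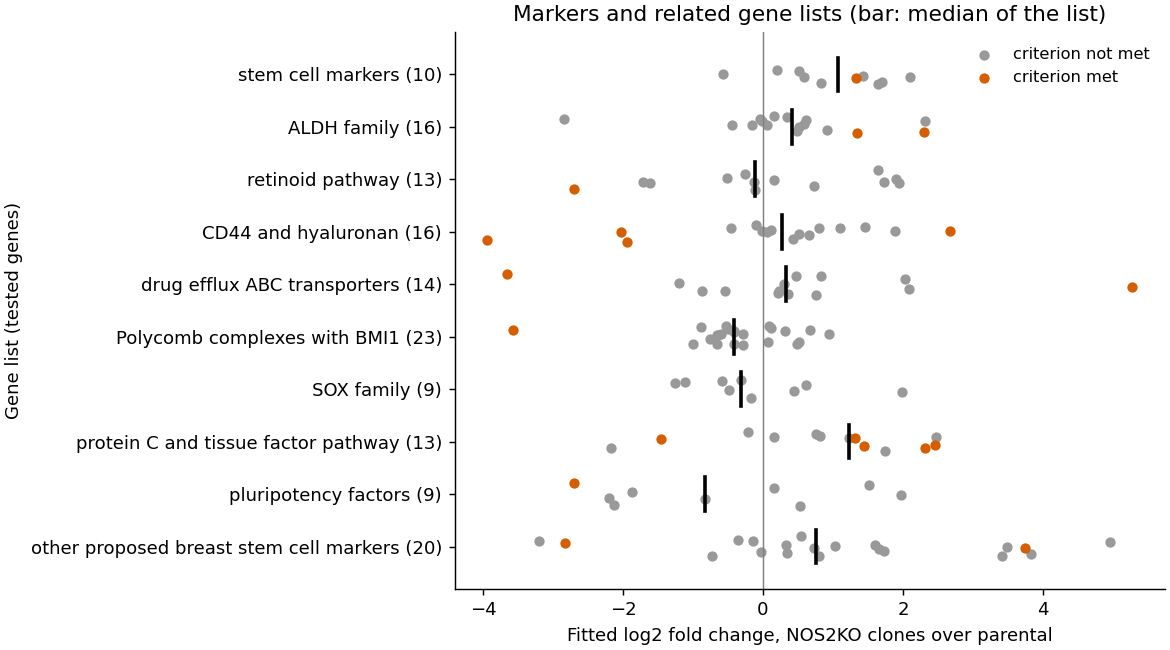
Fitted log2 fold change of each tested gene in the 10 markers and in 9 related lists (other than the markers themselves), orange where the criterion was met, with a black bar at the median. The markers spanned -0.57 to 2.10 with PROCR alone meeting the criterion, and in the protein C list 5 of 13 genes met it.

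Markers of other cell states were summed in the same libraries, and single genes among them were named after their values were seen. The summed level of 7 mesenchymal markers, mostly VIM and FN1, was 4138 CPM in parental cells and 6530, 6192 and 6045 CPM in the clones. Of the 7, 4 were fitted higher and 3 lower. TWIST1 (16.1 CPM and 36.1, 31.9 and 29.5 CPM) was higher by the criterion. SNAI2 (11.0 CPM and 24.4, 17.4 and 17.6 CPM) was above the parental level in all 3 clones but did not meet it. The repressor ZEB1 (83.7 CPM and 39.5, 50.05 and 57.8 CPM) was below the parental level in all 3 clones. So was ZEB2 (57.7 CPM and 40.2, 40.4 and 44.3 CPM), and neither met the criterion. The summed level of 15 luminal markers, mostly KRT8 and KRT18, was 626 CPM and 919, 1419 and 982 CPM. Of 12 tested, 10 were fitted higher, against 12252 of all 22511 tested genes, and 0 met the criterion. Among the 12, KRT19, CLDN7, EPCAM and CDH1 had at most 16, 22, 28 and 44 counts. The 2 fitted lower, GATA3 (10.5 CPM and 5.37, 4.46 and 1.61 CPM) and CLDN4, were below the parental level in all 3 clones. The sum of 9 basal and myoepithelial markers was 520 CPM and 415, 313 and 294 CPM. Its members went both ways, with KRT17 lower by the criterion (216 CPM and 6.65, 9.56 and 1.93 CPM), as was KRT14, and TP63 (42.4 CPM and 127, 108 and 76.5 CPM) and MYLK (20.1 CPM and 81.1, 56.8 and 67.6 CPM) higher by it. The sum of 5 leukocyte markers was 17.4 CPM and 70.8, 110 and 53.3 CPM, mostly PTPRC, which met the criterion (log2 fold change 4.01, SE 0.56, edgeR adjusted p = 0.282). CD14, by contrast, was at 12.8 CPM and 2.29, 4.28 and 11.3 CPM. The part of these differences in the levels of CD44, CD24 and PROCR was not tested.

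For the 3 abundant markers with the widest range over the libraries, the genes with the most similar pattern were sought among 10709, by the Euclidean distance of centred log2 CPM over the 4 libraries. Nearest to ABCG2 were TM7SF2 (distance 0.08), at 8.14 CPM in parental cells and 46.9, 12.4 and 18.9 CPM in the clones, then ARHGEF39 and NCAPH. Nearest to CD24 were CDK18 (distance 0.17), at 28.2 CPM and 40.6, 53.1 and 119 CPM, then DSEL and PCDHGB1. Nearest to PROCR was PLXNB3 (distance 0.06), at 8.36 CPM and 19.7, 18.5 and 22.1 CPM.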

How the data were processed

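RNA from 1 parental and 3 NOS2KO SUM159 cultures was sequenced as poly(A)-selected, paired-end libraries. The authors deposited raw read counts per gene, without normalization. The submitters' processing notes name Trimmomatic 0.36, STAR 2.5.2b, featureCounts of Subread 1.5.2 and GRCh38, and the strand setting, annotation release and treatment of multiply mapped reads are not given in the sources used here. Identifiers were joined to GENCODE release 29, where 54784 of 57500 had the same position. With edgeR 4.0.16 in R 4.3.3, genes were filtered by filterByExpr, scaled by TMM and tested by glmQLFit and glmQLFTest, with Benjamini-Hochberg adjustment over 22511 genes. The spread came from the clones alone (2 residual and 2.75 prior degrees of freedom) and was assumed to hold for parental cells. The p-values measure only the spread between these samples. The criterion was a log2 fold change above 1 or below -1 at an unadjusted p under 0.05. Log2 CPM used a prior count of 2 and fitted fold changes one of 0.125. At depths of 90467395 to 122171287 counts, 3 counts were worth 0.0246 to 0.0332 CPM. Ratios of single libraries carry exact Clopper-Pearson 95% intervals, which like the floors cover only counting error.

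The markers and lists were chosen with earlier results of these data known. Up to 3 genes were named per list, with 10 CPM or more in a library, the same direction in all 3 clones and the largest fold change, and others are said to be named after their values were seen. TMEM2 had no match. Some results are not reported here. The fits were tested on simulated data. Alternatives were DESeq2 1.42.0, other scalings (RLE, upper quartile, library size), other filters (none, 1 CPM), bias-adjusted and robust fits, another prior count, readthrough counts added to BMI1, and fits that left out or kept a single clone.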

Additional observations from a re-analysis of the deposited data

How the results depend on the processing

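The count of genes with an adjusted p under 0.05 was 1 with edgeR, 6 without a filter, 5 with bias-adjusted quasi-likelihood, 1113 with DESeq2 and 0 when any clone was left out. By the criterion, 955 genes were higher and 1202 lower, against 1591 and 1144 with DESeq2 and 1124 and 1002 with upper quartile scaling, and 641 to 1791 were higher and 825 to 1608 lower when a clone was left out. Upper quartile scaling moved the median log2 fold change of all genes from 0.10 to 0.20. The markers meeting the criterion numbered 1, 2 with DESeq2 and 1 to 3 when a clone was left out, those called after adjustment 0 and, with DESeq2, 1, and the list genes 18 and 14 to 32 when a clone was left out. The cause of these shifts was not tested.

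The fold change of ALDH1A1 (0.59) was 1.18 without clone 1 but turned to -5.30 without the library labelled clone 5, -9.02 in clone 1 alone (a value set by the prior count, since clone 1 had 0 counts) and -4.31 in clone 6 alone. That of ALDH1A3 (0.20) was 0.37 without clone 1 and turned to -0.18 without clone 6, -0.23 in clone 1 alone and -0.14 in the library labelled clone 5 alone. PROM1 (1.65) was 2.21 without clone 6 and turned to -0.97 without the library labelled clone 5, -0.23 in clone 1 alone and -2.75 in clone 6 alone, SOX2 (2.10) to -1.12 and SOX9 (0.52) to -0.22 in clone 1 alone. CD44, CD24, ABCG2, BMI1 and PROCR kept their direction under every alternative. The edgeR adjusted p of PROCR was 0.332, and over the alternatives it ranged from 0.0105 (DESeq2) to 0.739. The ALDH1A1 share of ALDH1A in the clones, 29.8% on average, was 2.34% to 44.7% when a clone was left out, and the difference of the CD44 to CD24 ratio was -0.81 to -0.07. SOX2 was not tested with a minimum of 1 CPM. No paired analysis was possible because there was a single parental library and the numbers 1, 5 and 6 name clones. Depth limits PROM1, SOX2 and ALDH1A1, each with 4 counts or fewer in some library, and ALDH1A3, with 60 to 110.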

Other observations

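The genes within 1 megabase on each side of a marker, that reached 10 CPM, were examined after the data had been seen. Around CD44 there were 8, with a median log2 fold change of -0.67, 5 of them below the parental level in all 3 clones and 1, CD44 excluded, above it. Around ALDH1A3 there were also 8, with a median of -0.37, 5 of them below the parental level in all 3 clones and 0 above it. Of the 10709 genes that reached 10 CPM, 3990 were below the parental level in all 3 clones and 2973 above it. Around PROCR there were 27 with a median of 0.16, around ABCG2 12 with 0.26 and around CD24 9 with 0.05, against -0.04 over the 10709 genes at that level. SOX9-AS1, the antisense neighbour of SOX9, had 10 counts in parental cells and 13, 68 and 42 in the clones. SOX2-OT, whose locus spans SOX2, had 8 counts in parental cells and 7, 7 and 1 in the clones. COMMD3, next to BMI1, was at 10.4 CPM in parental cells and 12.7, 11.3 and 13.4 CPM in the clones, where BMI1 was lower.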
